A study of Mus musculus with 18 samples.

Results

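The lysyl oxidase family comprised 5 genes in these mouse tail tendon fibroblasts (TFs): *Lox*, *Loxl1*, *Loxl2*, *Loxl3* and *Loxl4*. They were found by gene symbol, and made up 5 of the 55487 genes in the deposited count table. Lysyl oxidases are secreted, copper-dependent enzymes that oxidise lysine and hydroxylysine side chains of collagen and elastin. The aldehydes that result condense into the covalent crosslinks that give tendon its stiffness and strength. *Lox* and *Loxl1* are made with an N-terminal propeptide, whereas *Loxl2*, *Loxl3* and *Loxl4* carry scavenger receptor cysteine-rich domains. In other cell types, hypoxia-inducible factors are known to raise the transcription of several members in low oxygen.

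The series asked how TFs respond to low oxygen and how that response depends on *Hif1a*, which encodes the oxygen-regulated subunit of hypoxia-inducible factor 1. There were 3 arms, each cultured for 4 days in 20% or 1% O2, with 3 libraries for each of the 6 groups and 18 libraries in all. Ctrl TFs were labelled wild-type and, per the study's methods, came from Cre-negative mice. cKO TFs were labelled *Hif1a* knockout and came from Hif1a fl/fl; ScxCre mice, in which a constitutive Cre is driven by regulatory elements of the tendon gene *Scx*. The gesicle arm was Ctrl TFs to which Cre had been delivered in membrane vesicles (gesicles), and the extent of recombination in these cells was not given in the sources used here. All TFs had crawled out of adult tail tendon, a positional and not a load-bearing tendon, and were passaged in culture before use. The mice were males and females 4 to 6 months old on a mixed C57BL6J and 129S1 background.

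Library totals ran from 6857558 estimated counts, in replicate 1 of cKO at 1% O2, to 51806453. A count of 3 corresponded to 0.437 counts per 1000000 (CPM) in the shallowest library and 0.0579 CPM in the deepest. *Hif1a* measured 348 ± 19.6, 377 ± 72.8 and 362 ± 31.0 CPM (SD, n = 3) at 20% O2 in Ctrl, cKO and gesicle TFs, and 420 ± 63.0, 443 ± 54.3 and 384 ± 12.3 CPM at 1% O2. It was not lower in the libraries labelled cKO, but gene-level counts include exons outside the floxed part, so this does not check the deletion. By qPCR, after a longer culture, the study reported reduced *Hif1a* expression in cKO tail TFs. Of 10 established oxygen-responsive genes, 9, 8 and 8 were called higher at 1% O2 in Ctrl, cKO and gesicle TFs. The lactate exporter *Slc16a3*, for example, was higher by 6.43, 5.25 and 6.10 on the log2 scale. Of 10 tendon fibroblast markers, 10 were detected in every group. *Xist*, a marker of female cells, was above 1 CPM in replicates 2 and 3 of Ctrl and gesicle TFs and in replicate 1 of cKO TFs at both O2 levels, so sex was not balanced between the genotypes.

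The family shares a catalytic domain with a copper-binding cluster of closely spaced histidines. The coding bases around that cluster are shown to let the paralogs be compared. The 42-base window was read from GENCODE M21 transcripts, 5′ to 3′, and the capitals mark the 26 bases that are the same in all 4 genes printed.
Loxl1: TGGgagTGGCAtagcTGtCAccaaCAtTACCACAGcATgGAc
Loxl2: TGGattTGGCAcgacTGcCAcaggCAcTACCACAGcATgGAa
Loxl3: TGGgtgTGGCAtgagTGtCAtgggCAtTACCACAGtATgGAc
Loxl4: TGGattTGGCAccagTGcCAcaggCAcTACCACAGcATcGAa

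The *Loxl2* and *Loxl4* windows were identical at 39 of 42 bases, and those of *Loxl1* and *Loxl4* at 28. In each gene the window was coding sequence and crossed an exon junction. On GRCm38 it lay in exons 3 and 4 of *Loxl1* (chr9:58293711-58294381, minus strand), exons 10 and 11 of *Loxl2* (chr14:69682316-69689046, plus strand), exons 10 and 11 of *Loxl3* (chr6:83049995-83050134, plus strand) and exons 11 and 12 of *Loxl4* (chr19:42598798-42599899, minus strand), each interval including the intron between them. The 5 genes themselves were annotated as *Lox* (ENSMUSG00000024529) at chr18:52516067-52529867, *Loxl1* (ENSMUSG00000032334) at chr9:58287738-58313186, *Loxl2* (ENSMUSG00000034205) at chr14:69609068-69695834, *Loxl3* (ENSMUSG00000000693) at chr6:83034173-83052562 and *Loxl4* (ENSMUSG00000025185) at chr19:42593982-42612813. The longest stretch that transcripts of any 2 members shared exactly was 32 bases, between *Lox* and *Loxl1*, which is shorter than the 151-base reads. *Lox*, *Loxl2* and *Loxl3* overlap other annotated genes, *Loxl3* the protease gene *Htra2* on the opposite strand. Whether the counting used strand was not given in the sources used here, so part of their counts could belong to those neighbours.

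*Lox*, which encodes the founding enzyme of the family and acts on fibrillar collagens and elastin, made up nearly the whole family at the RNA level. Per length, in transcripts per 1000000 (TPM) computed from the counts and the summed exon length, *Lox* had a median of 6195 TPM over the 18 libraries (range 3020 to 8648). It held 87.2 to 92.0% of the family's TPM in every library, and stood between rank 2 and rank 28 among 55227 genes. The next levels were those of *Loxl3*, with a median of 258 TPM (140.0 to 357), *Loxl1*, with 209 TPM (136 to 262), and *Loxl2*, with 176 TPM (112 to 279). *Loxl4* was the lowest member at a median of 20.4 TPM (7.70 to 36.4), and its share of the family ran from 0.146 to 0.611%.

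*Lox* exceeded the highest of the other 4 members by 17.2 to 30.1 times per library, in 18 of 18 libraries. *Loxl4* was below each of *Loxl1*, *Loxl2* and *Loxl3* in 18 of 18 libraries, and the lowest of those genes exceeded it by 4.42 to 17.6 times. The order in between was not fixed. *Loxl3* was above *Loxl1* in 16 libraries, *Loxl3* was above *Loxl2* in 16, and *Loxl1* was above *Loxl2* in 13, with ranges over libraries that overlapped for every pair among them.

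**Figure D1:**
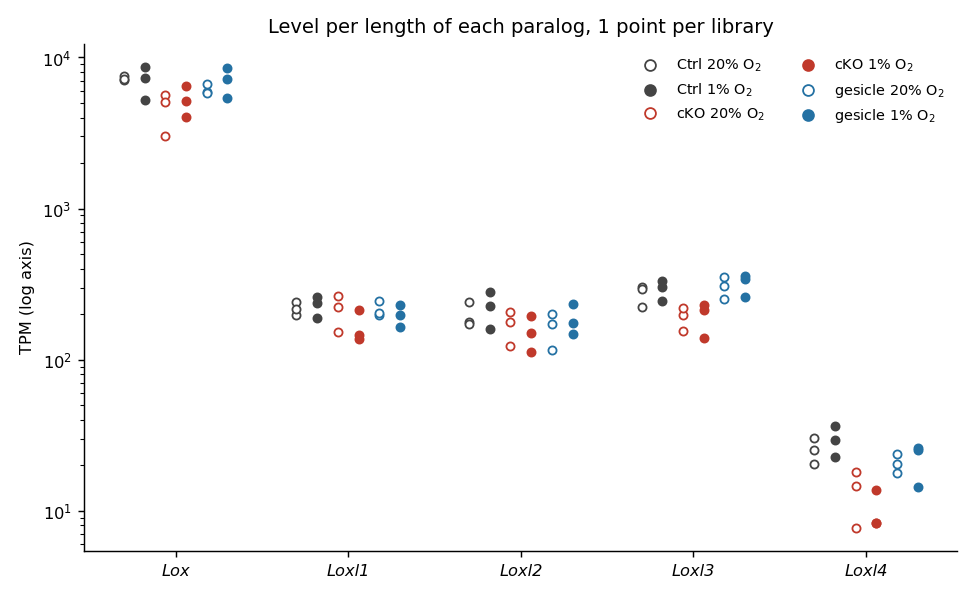
Transcript level per length (TPM, log axis) of the 5 lysyl oxidase genes in the 18 libraries, by group; each point is 1 library, open at 20% and filled at 1% O2. *Lox* lies between 3020 and 8648 TPM, *Loxl1*, *Loxl2* and *Loxl3* overlap between 112 and 357 TPM, and *Loxl4* lies between 7.70 and 36.4 TPM.

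The first comparison asked whether oxygen changed the family. None of the 5 genes was called changed between 1% and 20% O2 in Ctrl, cKO or gesicle TFs, and the O2 groups overlapped for each of the 5 in every arm, whereas they did not overlap for 29.7%, 20.5% and 24.0% of all genes. A gene was called when edgeR's quasi-likelihood test gave a Benjamini-Hochberg adjusted p under 0.05 over 16174 genes and the fold change was at least 1.5. By that rule 2.68%, 3.01% and 2.41% of all genes were called in Ctrl, cKO and gesicle TFs, and 0 of 5 members in each. At an unadjusted p under 0.05 with any fold change the count of members was also 0, beside 17.1%, 21.0% and 17.3% of all genes. By the rule with both thresholds, DESeq2 and limma voom called 0 members too. Over the alternative fits the adjusted p of *Loxl1* in cKO TFs ran from 0.0381 to 0.635. Its log2 difference there was -0.35 to -0.22, below the fold minimum. The median log2 difference of the members was 0.19, -0.03 and 0.16, beside -0.01, -0.04 and -0.02 for all genes.

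*Lox* measured 9873, 9098 and 9355 CPM in replicates 1 to 3 of Ctrl at 20% O2 and 7228, 11704 and 10243 CPM at 1% O2. The 1% libraries lay on both sides of the 20% libraries, and the log2 difference was 0.04 (SE 0.20, 95% confidence interval -0.39 to 0.48, edgeR adjusted p = 0.950). In cKO TFs *Lox* measured 7142, 4704 and 6698 CPM at 20% O2 and 6177, 7800 and 9152 CPM at 1% O2. The log2 difference was 0.32 (SE 0.20, edgeR adjusted p = 0.386), with replicate 1 at 1% O2 below 2 of the 20% libraries. In gesicle TFs *Lox* measured 8432, 8854 and 7689 CPM at 20% O2 and 10090, 11937 and 8073 CPM at 1% O2, a log2 difference of 0.27 (SE 0.20, edgeR adjusted p = 0.534).

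*Loxl4*, a collagen-crosslinking paralog of the scavenger receptor type, measured 34.6, 28.7 and 23.3 CPM in Ctrl at 20% O2 and 44.6, 34.9 and 28.4 CPM at 1% O2. Each 1% library was above the 20% library of the same replicate number, and the log2 difference was 0.32 (SE 0.27, 95% confidence interval -0.25 to 0.88, edgeR adjusted p = 0.598). In cKO TFs *Loxl4* measured 20.3, 10.6 and 17.0 CPM at 20% O2 and 11.1, 11.03 and 17.1 CPM at 1% O2. The log2 difference there was -0.27 (95% confidence interval -0.85 to 0.30, edgeR adjusted p = 0.598), and replicates 2 and 3 had nearly the same level at both O2 levels. In gesicle TFs it measured 25.5, 27.7 and 20.6 CPM at 20% O2 and 32.2, 31.2 and 19.0 CPM at 1% O2, a log2 difference of 0.16 (95% confidence interval -0.41 to 0.72, edgeR adjusted p = 0.809).

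*Loxl2*, which acts on collagen IV of basement membranes among other substrates, measured 260, 251 and 352 CPM in Ctrl at 20% O2 and 253, 427 and 359 CPM at 1% O2. The log2 difference was 0.27 in Ctrl, -0.03 in cKO and 0.27 in gesicle TFs (SE 0.23 in each, edgeR adjusted p = 0.612, 0.955 and 0.587). *Loxl3*, known for its part in collagen assembly of the palate and spine, measured 383, 366 and 278 CPM in Ctrl at 20% O2 and 405, 434 and 332 CPM at 1% O2. Its log2 differences were 0.19, 0.14 and 0.15 (SE 0.18 in each, edgeR adjusted p = 0.645, 0.696 and 0.710). *Loxl1*, the paralog needed for elastic fibre renewal, ranged from 144 to 250 CPM over the 18 libraries and had log2 differences of 0.16, -0.25 and -0.05 (SE 0.17 in each, edgeR adjusted p = 0.681, 0.414 and 0.910). Over the 9 pairs of libraries with the same arm and replicate number, the level was higher at 1% O2 in 7 pairs for *Lox*, 5 for *Loxl1*, 6 for *Loxl2*, 8 for *Loxl3* and 7 for *Loxl4*. Whether the numbers pair libraries was not given, and these counts were not set beside those of all genes.

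**Figure D2:**
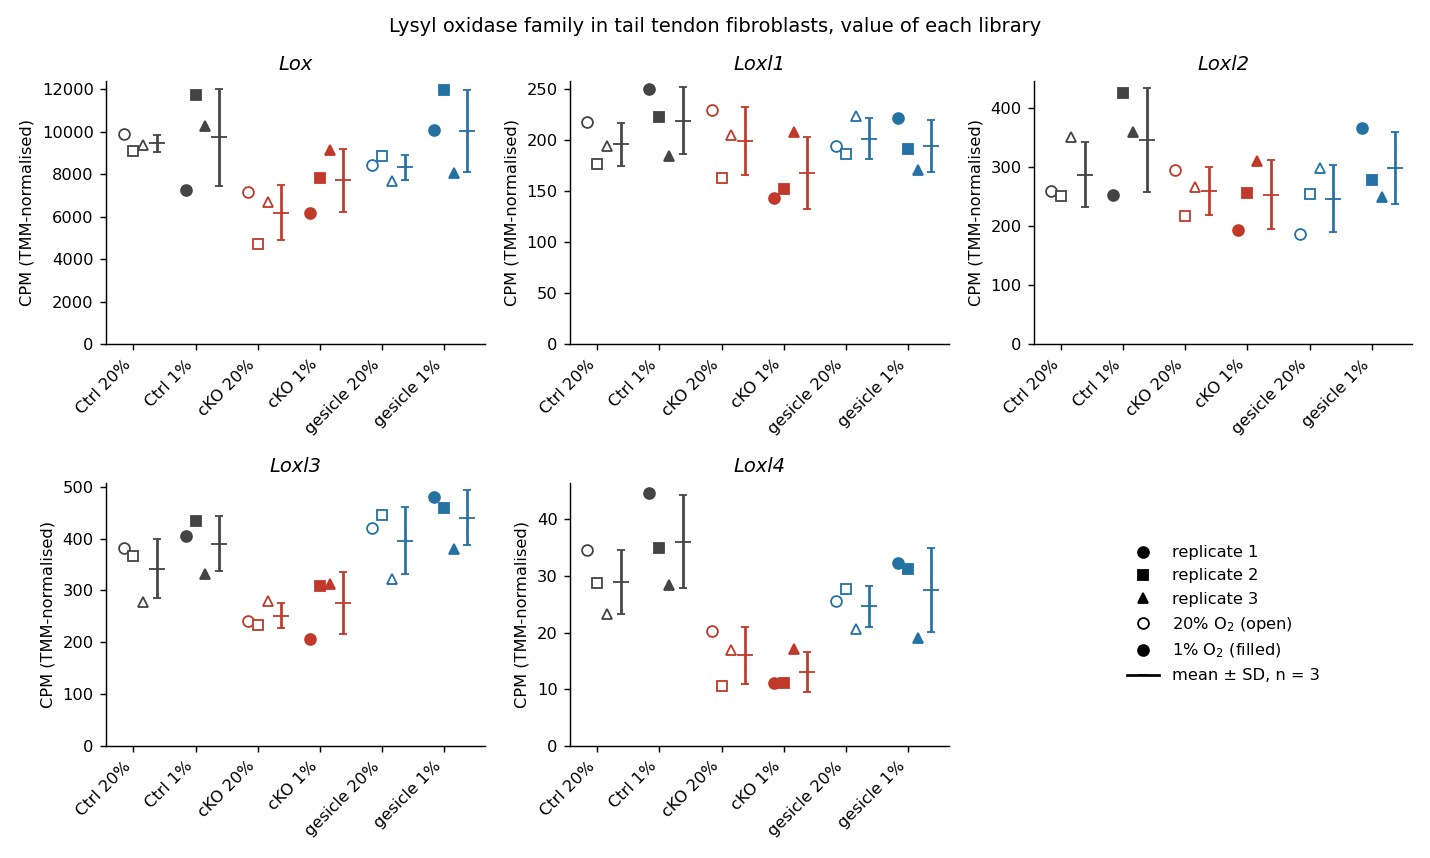
Normalised level (CPM, linear axis from 0) of each of the 5 genes in every library at 20% O2 (open) and 1% O2 (filled) in Ctrl, cKO and gesicle TFs, with the group mean and SD beside the points (n = 3). The 20% and 1% points overlap in every arm, and the 6 cKO points for *Loxl4* (10.6 to 20.3 CPM) lie below the 6 Ctrl points (23.3 to 44.6 CPM).

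The second comparison asked what the *Hif1a* genotype changed. *Loxl4* RNA was lower in cKO than in Ctrl TFs, by 2.22-fold as the mean over both O2 levels, and it was the only member called in any comparison by edgeR. Its mean was 28.9 ± 5.66 CPM in Ctrl and 15.96 ± 4.95 CPM in cKO TFs at 20% O2, and 36.0 ± 8.18 and 13.1 ± 3.48 CPM at 1% O2 (SD, n = 3). All 6 cKO libraries were below all 6 Ctrl libraries, and the genotypes did not overlap, in either direction, for 2.50% of all genes. Over both O2 levels the log2 difference was -1.15 (SE 0.19, 95% confidence interval -1.56 to -0.75, edgeR adjusted p = 0.00433), beside 3.89% of all genes called, 2.55% being called lower. When the 20% and 1% libraries of each replicate number were summed, so that each number counted once, the difference was -1.09 with an adjusted p of 0.0824 and was not called. Without replicate 1 of cKO at 1% O2, the shallowest library, it was -1.11 (edgeR adjusted p = 0.0141).

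At the single O2 levels *Loxl4* did not pass the test. At 20% O2 the log2 difference was -0.86 (95% confidence interval -1.43 to -0.29, edgeR adjusted p = 0.172), with all cKO libraries below all Ctrl libraries, as for 10.3% of genes. At 1% O2 it was -1.45 (95% confidence interval -2.03 to -0.87, edgeR adjusted p = 0.0689), with no overlap, as for 15.0% of genes. By edgeR 0.538% of genes were called at 20% O2 and 0.0866% at 1% O2, and 0 of 5 members at either. At an unadjusted p under 0.05 with the same fold change, 2 members passed at 20% O2 (*Lox* and *Loxl4*), beside 8.24% of all genes, and 1 at 1% O2 (*Loxl4*), beside 9.60%. DESeq2 called 0 members at 20% O2 and *Loxl4* at 1% O2 (log2 difference -1.44, DESeq2 adjusted p = 0.000295), and limma voom called *Loxl4* at both.

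The mean of *Lox* at 20% O2 was 9442 ± 395 CPM in Ctrl TFs, against 6181 ± 1299 CPM in cKO TFs (SD, n = 3). All 3 cKO libraries were below all 3 Ctrl libraries, as for 10.3% of genes. The log2 difference was -0.61 (SE 0.21, 95% confidence interval -1.05 to -0.18, edgeR adjusted p = 0.202). At 1% O2 the levels were 9725 ± 2282 and 7710 ± 1489 CPM and the libraries overlapped (log2 difference -0.33, edgeR adjusted p = 0.371). Over both O2 levels the difference was -0.47 (SE 0.14, edgeR adjusted p = 0.0583), which missed the p threshold and, at 1.39-fold, the fold threshold. The adjusted p was 0.0157 with DESeq2, 0.00226 with limma voom and 0.174 with the libraries of each replicate number summed.

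*Loxl3* measured 241, 233 and 279 CPM in cKO TFs at 20% O2 and 206, 309 and 313 CPM at 1% O2, against Ctrl means of 342 ± 56.5 and 390.3 ± 52.7 CPM (SD, n = 3). The log2 difference was -0.45 at 20% O2 (edgeR adjusted p = 0.275) and -0.50 at 1% O2 (edgeR adjusted p = 0.215). At 1% O2 all cKO libraries were below all Ctrl libraries, as for 15.0% of genes. Over both O2 levels it was -0.47 (SE 0.13, edgeR adjusted p = 0.0404). This passed the p threshold as did 6.34% of all genes, but at 1.39-fold not the fold threshold, and with the libraries of each number summed the adjusted p was 0.170.

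*Loxl1* had means of 196 ± 20.9 and 199 ± 33.6 CPM in Ctrl and cKO TFs at 20% O2, and of 219 ± 32.9 and 168 ± 34.8 CPM at 1% O2 (SD, n = 3). Its log2 difference was 0.02 at 20% O2 and -0.38 at 1% O2 (edgeR adjusted p = 0.960 and 0.258). *Loxl2* had means of 288 ± 55.6 and 260 ± 40.1 CPM at 20% O2 and of 346 ± 87.6 and 254 ± 58.7 CPM at 1% O2, with log2 differences of -0.15 and -0.45 (edgeR adjusted p = 0.763 and 0.312). Libraries overlapped for both genes at both O2 levels. Over both O2 levels the 5 members had a median log2 difference of -0.47, against 0.03 for all genes, and all 5 were below 0, as were 47.1% of all genes.

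**Figure D3:**
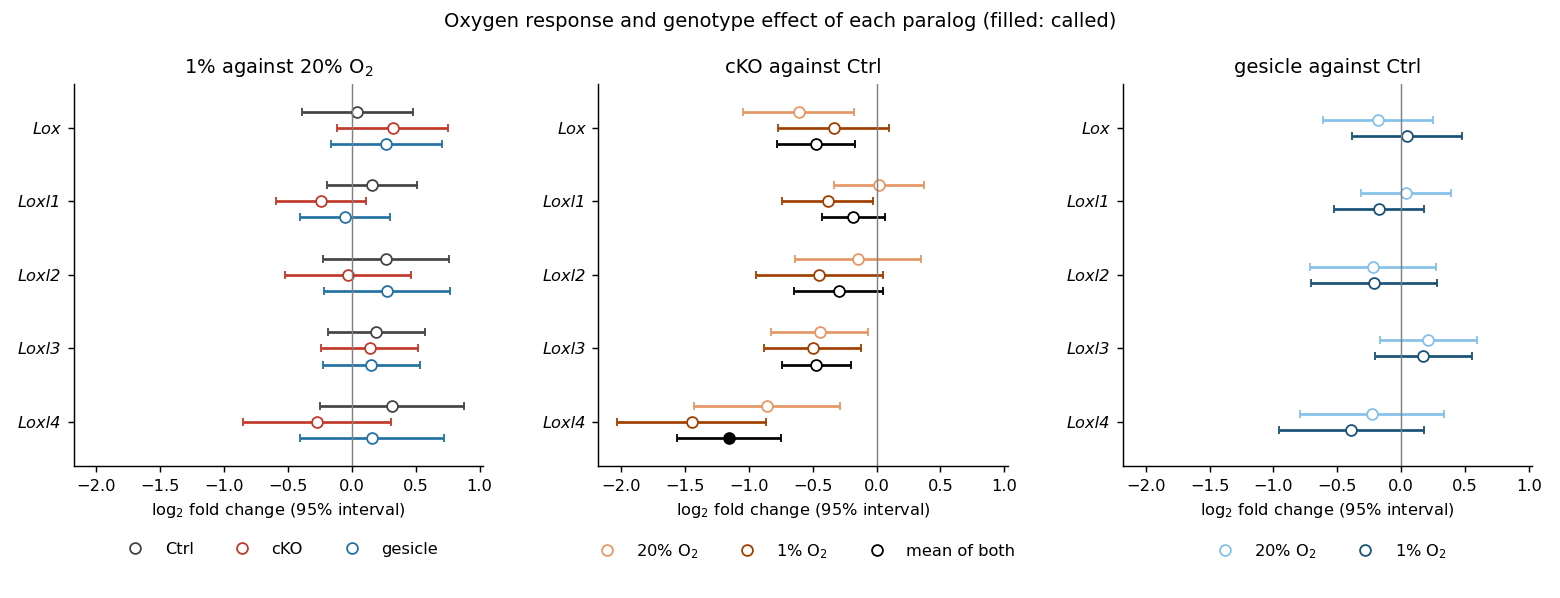
Log2 fold change of each of the 5 genes with its 95% confidence interval (edgeR) for 1% against 20% O2 in the 3 arms, and for cKO and gesicle against Ctrl TFs; a filled point was called. The intervals of the O2 comparisons span 0 for every member, and the interval farthest below 0 is that of *Loxl4* in cKO against Ctrl at 1% O2 (-2.03 to -0.87).

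Whether the O2 response differed between genotypes was tested as a difference of differences. For *Loxl4* the response in cKO minus that in Ctrl TFs was -0.59 on the log2 scale (95% confidence interval -1.40 to 0.22, unadjusted p = 0.140 and edgeR adjusted p = 1.00). By replicate number the *Loxl4* response was 0.37, 0.28 and 0.28 in Ctrl and -0.87, 0.06 and 0.01 in cKO TFs. These responses did not overlap, as for 9.38% of genes. The exact permutation p of 0.1 (two-sided) is the smallest that 3 against 3 allows. The -0.87 rests on replicate 1 of cKO at 1% O2, the shallowest library, with 78 *Loxl4* counts. Whether a number pairs libraries was not given, and deviations of same-numbered cKO libraries correlated at 0.0956, 0.0921 and 0.368. For *Loxl1* the difference was -0.41 (95% confidence interval -0.90 to 0.09, edgeR adjusted p = 1.00). Across all genes edgeR called 0 of 16174 here, DESeq2 called 0 and limma voom called 1, while 2.73% had an unadjusted p under 0.05. The 95% confidence intervals of the members include differences in either direction.

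The gesicle arm compared Ctrl TFs with and without delivered Cre. *Loxl4* had a log2 difference of -0.23 at 20% O2 (95% confidence interval -0.80 to 0.33) and -0.39 at 1% O2 (95% confidence interval -0.95 to 0.18), both with an edgeR adjusted p of 1.00. *Lox* had a log2 difference of -0.18 at 20% O2, with all 3 gesicle libraries below all 3 Ctrl libraries, as for 5.63% of genes (edgeR adjusted p = 1.00). *Loxl3* differed by 0.21 and 0.17 at 20% and 1% O2. Same-numbered Ctrl and gesicle libraries deviated together, and across those 6 pairs *Loxl4* was lower in the gesicle library in 6, as were 2.31% of all genes, and *Loxl3* was higher in 6, as were 3.34%. With the replicate number as a block the *Loxl4* difference was -0.22 at 20% O2 and -0.39 at 1% O2, and that of *Loxl3* 0.21 and 0.18, with an edgeR adjusted p of 1.00 for each. No member was called at either O2 level by edgeR with or without the block, DESeq2 or limma voom, nor at an unadjusted p under 0.05 without the block. In this arm 0.0247% of all genes were called at 20% O2, and 3.67% had an unadjusted p under 0.05. At 1% O2 the count was 0 by edgeR, DESeq2 and limma voom, and 324 genes had an unadjusted p under 0.05. The cKO and gesicle comparisons share the same Ctrl libraries. The difference of the O2 response between gesicle and Ctrl TFs was also not called for any member (*Loxl4* -0.16, 95% confidence interval -0.96 to 0.64), nor for any of the 16174 genes by edgeR or DESeq2, while 243 had an unadjusted p under 0.05.

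Some markers of other cell types and of tendon fibroblasts were also called between the genotypes as the mean of both O2 levels. In that comparison 3.89% of all genes were called. Of 10 tendon fibroblast markers, the matrix proteoglycan genes *Dcn* and *Lum* were called higher in cKO TFs (log2 differences 2.28 and 3.47) and 0 were called lower. Both were still called with the libraries of each replicate number summed (adjusted p = 0.0119 and 0.0210). The summed level of this list ran from 10805 to 12797 CPM in Ctrl at 20% O2, 5731 to 13143 CPM in Ctrl at 1% O2, 5234 to 10120 CPM in cKO at 20% O2 and 5545 to 9266 CPM in cKO at 1% O2. Of 5 pericyte or smooth muscle markers, *Myh11* (-1.39), *Rgs5* (-0.77) and *Cspg4* (-1.46) were called lower in cKO TFs. With the libraries of each replicate number summed, *Cspg4* was still called (adjusted p = 0.0119), while *Myh11* and *Rgs5* were not (adjusted p = 0.0680 and 0.122). Their summed level ran from 1432 to 2188 CPM and 1179 to 1708 CPM in Ctrl, and from 1024 to 1710 CPM and 1267 to 1340 CPM in cKO TFs, at 20% and 1% O2. Of 4 skeletal muscle markers *Acta1* was called lower (-0.91), but not with summed libraries (adjusted p = 0.0733), while *Pax7* and *Ckm* were at 0 counts in all Ctrl and cKO libraries. No immune, endothelial, Schwann cell, epithelial, chondrocyte or adipocyte marker was called between the genotypes. Immune markers summed to 10.6 to 25.4 CPM over all libraries, and epithelial markers to at most 0.498 CPM. The part of these markers in the *Loxl4* difference was not tested, and in bulk RNA fewer cells of a type and less RNA per cell cannot be told apart. With the log2 level of *Xist* as a covariate the *Loxl4* difference over both O2 levels was -1.20 (edgeR adjusted p = 0.00381).

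The promoter of *Loxl4* is shown because *Loxl4* was the only member that edgeR called between the genotypes, as the mean of both O2 levels. With the libraries of each replicate number summed it was not called. *Loxl4* is also the only one of the 5 with an entry in the RefSeq promoter table used here (GRCm38.p6). The first 240 bases of that entry are printed 5′ to 3′ in the direction of the gene. They lie upstream of the start on the minus strand at chr19:42612817-42613056. The rest of the entry was not searched.
Loxl4: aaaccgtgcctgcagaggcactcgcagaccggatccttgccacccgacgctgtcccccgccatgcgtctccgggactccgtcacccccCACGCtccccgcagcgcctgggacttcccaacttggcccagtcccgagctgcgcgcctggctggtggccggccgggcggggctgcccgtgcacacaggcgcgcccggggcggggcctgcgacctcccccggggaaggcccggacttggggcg

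Hypoxia-inducible factors bind a core of ACGTG or GCGTG, and both strands were searched for these letters. The window held 1 match, GCGTG on the strand opposite to the gene, 158 to 162 bases upstream of the RefSeq start (chr19, 42612806) and marked by the capitals. A match was present in 37.4% of 32851 promoters cut to the same 240 bases, so its presence is common. The match is a description of the letters and not of a bound site.

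Other genes of collagen and elastin crosslinking were taken from fixed lists, of which 39 of 41 genes were tested. In 1% against 20% O2, 1 of 39 was called higher in Ctrl TFs and 0 in cKO or gesicle TFs by edgeR, while 10, 8 and 7 had an unadjusted p under 0.05, beside 17.1%, 21.0% and 17.3% of all genes. The gene called was *Plod1*, a lysyl hydroxylase that prepares lysines of collagen before crosslinking. It measured 142 ± 3.43 CPM at 20% O2 and 219.9 ± 13.3 CPM at 1% O2 in Ctrl TFs (SD, n = 3), with a log2 difference of 0.63 (SE 0.16, edgeR adjusted p = 0.0372). In cKO and gesicle TFs the *Plod1* difference was 0.44 and 0.42 (edgeR adjusted p = 0.125 and 0.165). *Plod2*, the hydroxylase of collagen telopeptides, had differences of 0.25, 0.44 and 0.40 in Ctrl, cKO and gesicle TFs, none of them called.

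In the elastic fibre list 0 of 7 genes were called in any arm. The microfibril gene *Mfap2* had log2 differences of 1.31, 1.31 and 1.27 in Ctrl, cKO and gesicle TFs (edgeR adjusted p = 0.0602, 0.0513 and 0.0683). Its lowest 1% library was above its highest 20% library in each arm. The O2 groups did not overlap, in either direction, for 29.7%, 20.5% and 24.0% of all genes. Elastin, *Eln*, had -1.79, 0.27 and -0.03, with 177 to 1456 CPM among the Ctrl libraries at 20% O2 alone. In the propeptide cleavage list, which holds proteinases that cleave the *Lox* propeptide and procollagen and the enhancers of those proteinases, 0 of 4 genes tested were called, the largest differences in Ctrl TFs being those of *Pcolce2* (0.59) and *Tll1* (-0.59). Of 6 scaffold genes, which bring enzyme and substrate together, 0 were called, with fibronectin, *Fn1*, at -1.07, -0.97 and -0.26. Of 7 collagen genes 0 were called, with *Col1a1* at -0.67, -0.62 and 0.03 and a list median of -0.33, -0.60 and 0.04. Of 7 genes for copper handling 0 were called, the largest difference in Ctrl TFs being 0.29 for *Slc31a2*. Of 3 genes for other crosslinks 0 were called, with the peroxidasin gene *Pxdn* at -0.26, -0.85 and -0.34.

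Between genotypes, the mean over both O2 levels gave 1 crosslinking gene called higher and 2 called lower in cKO TFs of 39 tested, beside 3.89% of all genes. *Mfap2* was higher by 1.07 on the log2 scale (SE 0.25, edgeR adjusted p = 0.0259), with 7.81 ± 2.68 and 19.3 ± 5.82 CPM in Ctrl and 16.4 ± 3.97 and 40.8 ± 11.7 CPM in cKO TFs at 20% and 1% O2 (SD, n = 3). The fibrillar collagen gene *Col5a2* was lower by 0.74 and the transglutaminase gene *Tgm2* by 0.72 (edgeR adjusted p = 0.0484 and 0.0489). With the libraries of each replicate number summed, none of these 3 was called (adjusted p = 0.196, 0.136 and 0.134). *Col1a1*, the main tendon collagen, had a difference of -1.12 and missed the threshold (edgeR adjusted p = 0.0531). The collagen list had a median of -0.74 and the copper list a median of 0.23, beside 0.03 for all genes.

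At 20% O2 alone, *Pcolce*, an enhancer of procollagen C-proteinase, was the only crosslinking gene called between genotypes, beside 0.538% of all genes. It measured 896 ± 46.1 CPM in Ctrl and 1424 ± 253 CPM in cKO TFs (SD, n = 3), a log2 difference of 0.67 (SE 0.14, edgeR adjusted p = 0.0436). Over both O2 levels its difference was 0.57, below the fold threshold (edgeR adjusted p = 0.00547). With the libraries of each replicate number summed it was 0.53, and the edgeR adjusted p of 0.0831 missed the p threshold too. At 1% O2 0 of 39 crosslinking genes were called by edgeR, while 12 had an unadjusted p under 0.05, beside 17.8% of all genes. Between gesicle and Ctrl TFs 0 were called at either O2 level, with 1 and 0 at an unadjusted p under 0.05.

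**Figure D4:**
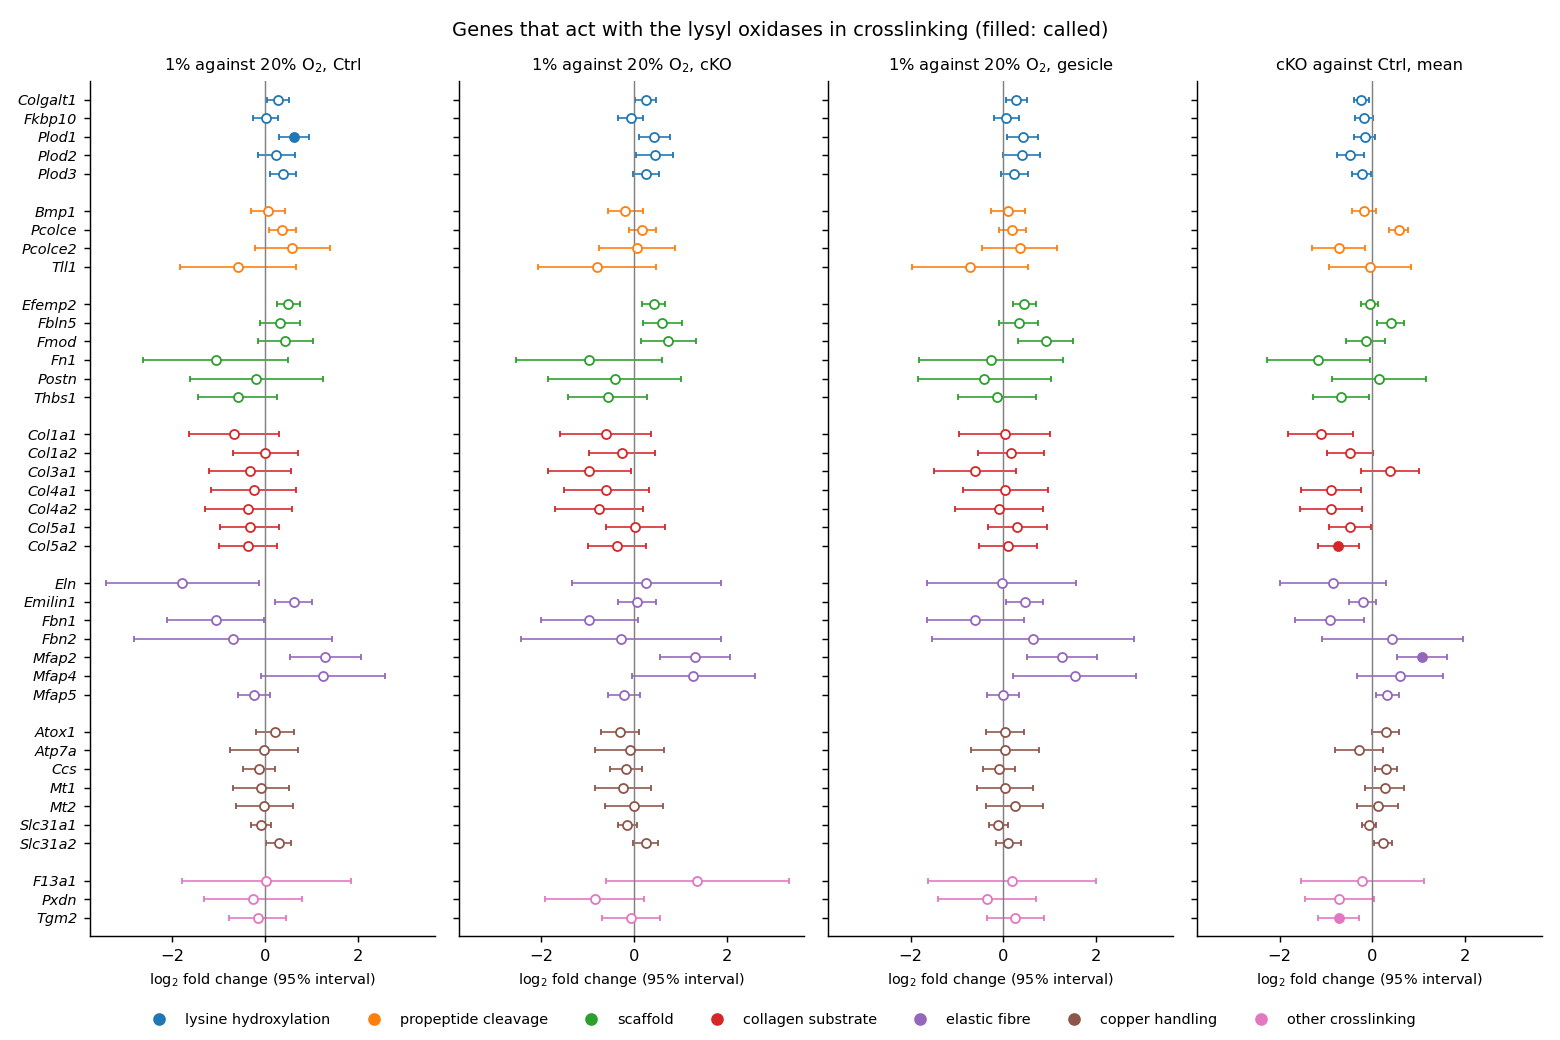
Log2 fold change with its 95% confidence interval (edgeR) of the crosslinking genes by list, for 1% against 20% O2 in the 3 arms and for cKO against Ctrl TFs as the mean of both O2 levels; filled points passed the test. *Plod1* (0.63) is the filled point for O2 in Ctrl TFs, and *Mfap2* (1.07), *Col5a2* (-0.74) and *Tgm2* (-0.72) are the filled points for genotype.

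The genes whose levels followed each member most closely over the 18 libraries were listed by Pearson's r of log2 CPM. For *Lox* these were *Dnajc3* (0.921), *Edem1* (0.920), *Pigg* (0.919), *Tsc22d2* (0.906) and *Abca8b* (0.905). For *Loxl1* they were *Ampd2*, *Safb2*, *BC037032*, *Frmd4b* and *Kcnd1* (0.887 to 0.840), and for *Loxl2* they were *Ccnt2*, *Limk1*, *Dnmt3a*, *Ksr1* and *Ccdc9b* (0.863 to 0.820). For *Loxl3* they were *Tmem154*, *Aebp1*, *Snai1*, *Slc52a3* and *Vps37b* (0.932 to 0.857). For *Loxl4* they were *Rhou*, *Orai2*, *Prkar2a*, *Kat14* and *Krba1* (0.954 to 0.920). Libraries of a group share genotype and O2 level, so these values describe the 18 libraries and are not a test. Within the family r ran from 0.273, between *Loxl2* and *Loxl3*, to 0.777, between *Loxl3* and *Loxl4*.

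Among the genes that followed *Loxl4*, *Rhou* and *Prkar2a* were called lower in cKO TFs as the mean of both O2 levels. Their log2 differences were -0.74 and -0.78 (edgeR adjusted p = 0.0108 and 0.00144), and 2.55% of all genes were called lower. Genes were picked here by their correlation with a member over the same libraries. A genotype difference shared with that member was therefore partly fixed by the choice and is not a separate result. With the libraries of each number summed, *Prkar2a* was still called (adjusted p = 0.0309). *Rhou* was not (adjusted p = 0.112). *Edem1*, which followed *Lox*, and *Slc52a3*, which followed *Loxl3*, were called lower as the mean of both O2 levels (edgeR adjusted p = 0.0381 and 0.0400). With summed libraries neither was called (adjusted p = 0.0904 and 0.160).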

How the data were processed

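RNA of 18 TF cultures was sequenced after poly-A enrichment as 151-base paired-end reads. The authors trimmed reads with cutadapt 4.8, checked them with FastQC 0.11.8 and MultiQC 1.20, mapped them to GRCm38 with STAR 2.7.8a and estimated counts per gene with RSEM 1.3.3; the estimated counts were deposited as whole numbers. The 4 transgene rows were left out of tests, and 0 sample columns went unused.

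Counts of 16174 genes kept by edgeR's filterByExpr were TMM-normalised (factors 0.962 to 1.03) and fitted for all 6 groups together with edgeR 4.0.16 in R 4.3.3 (two-sided quasi-likelihood test). TPM used summed exon lengths of GENCODE M21. The method was tested on simulated data, and figures used matplotlib 3.10.9 in Python 3.11.15. Alternatives were DESeq2 1.42.0, limma 3.58.1 voom with quality weights, other scaling, filters, thresholds and samples, a replicate block, an *Xist* covariate, summed libraries and leaving out each library. The study named a paired DESeq2 design with no pairing factor; here the fit had no block. Deviations of same-numbered libraries correlated above 0.1 for every pair in Ctrl at both O2 levels (0.271, 0.300 and 0.458) and in Ctrl with gesicle TFs, not in cKO TFs (0.0956, 0.0921 and 0.368), gesicle TFs between O2 levels or Ctrl with cKO TFs. Whether a number marks 1 mouse was not given; p-values measure the spread between these libraries, and counting intervals were not used. No pair of libraries agreed within sampling noise (chi-square per degree of freedom at least 15.3).

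The members and lists were chosen with earlier results of these data known. Besides the members, the text names listed pathway genes that were called, up to 2 with the largest difference for a list with none, and the 5 genes most correlated with each member.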

Additional observations from a re-analysis of the deposited data

Results flagged for a closer look

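Rows for transgenes, which no comparison used, held a few counts each. The labels and methods used here name Cre for these cells but no fluorescent reporter. The cre row had a count in 5 of the 6 libraries labelled cKO, with at most 5 counts in a library, and in 0 of the 12 others. The egfp row had a count in 5 of the 6 libraries labelled cKO, with at most 5 counts, and in none of the Ctrl or gesicle libraries. The tdtomato row had a count in 5 of the 6 gesicle libraries, with at most 3 counts, and in none of the Ctrl or cKO libraries.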

How the results depend on the processing

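Under every alternative run and without any single library, 0 members were called for O2 in any arm. Between genotypes as the mean of both O2 levels, *Loxl4* was called under each alternative except with the libraries of each replicate number summed, where 0 members were called (log2 difference -1.09, adjusted p = 0.0824), and with no fold minimum 2 members passed (*Loxl3* and *Loxl4*). Leaving out 1 library kept *Loxl4* between -1.29 and -1.04 (adjusted p 0.00379 to 0.0167). At 20% O2 the members called were 1 with DESeq2 and a replicate block, 1 with voom (*Loxl4* each) and 2 at an unadjusted p. At 1% O2, 1 member, *Loxl4*, was called with DESeq2 with and without a replicate block, no filter on low counts, an unadjusted p, voom and the *Xist* covariate. The adjusted p of *Loxl4* over these alternatives, without leaving out libraries, ran from 0.0103 to 0.286 at 20% O2 and from 0.000142 to 0.0994 at 1% O2. With 1 library left out it ran from 0.0884 to 0.535 at 20% O2 and from 0.104 to 0.240 at 1% O2 by edgeR, and 0 members were called. The edgeR replicate block changed no member's call (*Loxl4* over both O2 levels -1.13, adjusted p = 0.00468). Depth was lowest in replicate 1 of cKO at 1% O2, where *Loxl4* had 78 counts. Counts over all genes moved by more than 1.5 times: from 434, 487 and 390 for O2 in Ctrl, cKO and gesicle TFs to 770, 894 and 732 with DESeq2 and 1556, 2707 and 746 with voom, and to 84 and 120 in cKO and gesicle TFs when their libraries were fitted alone. For cKO against Ctrl at 20% O2, 1% O2 and as their mean they went from 87, 14 and 629 to 406, 246 and 1257 with DESeq2. With the replicate block they were 140, 33 and 572, the last within 1.5 times, and summed libraries gave 112 for the mean. With only the groups compared in the fit they were 1, 0 and 599, the last again within 1.5 times. Leaving out 1 library gave 1 to 109, 0 to 13 and 219 to 1551 genes in these 3 comparisons, the lowest without replicate 1 of Ctrl at 20%, 1% and 20% O2 and the 1551 without replicate 1 of cKO at 20% O2. It gave 204 to 366, 253 to 1117 and 148 to 346 for O2 in Ctrl, cKO and gesicle TFs, so the shares of all genes called that stand beside the members move with single libraries.

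Small differences changed sign in some settings, and the cause was not tested. With voom these were *Loxl1* for O2 in gesicle TFs (0.01071) and for gesicle against Ctrl at 1% O2 (0.004192), the difference of the O2 response between cKO and Ctrl for *Loxl3* (0.0665), and that between gesicle and Ctrl for *Loxl2* (-0.07495), *Loxl3* (0.1567) and *Loxl4* (0.1954). With the *Xist* covariate it was *Loxl1* for cKO against Ctrl at 20% O2 (-0.007578). Leaving out single libraries gave -0.1489 to 0.1724 for *Lox* for O2 in Ctrl, -0.1915 to 0.1293 for *Loxl2* in cKO and -0.1574 to 0.03008 for *Loxl1* in gesicle TFs. It gave -0.09444 to 0.1461 for *Loxl1* in cKO against Ctrl and -0.04537 to 0.1156 in gesicle against Ctrl at 20% O2, and -0.1098 to 0.2114 for *Lox* in gesicle against Ctrl at 1% O2. For the difference of the O2 response it gave -0.108 to 0.1335 for *Loxl3* between cKO and Ctrl, and -0.162 to 0.2037 for *Loxl2*, -0.1664 to 0.1239 for *Loxl3* and -0.2926 to 0.06241 for *Loxl4* between gesicle and Ctrl.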
